A study of Mus musculus with 16 samples.

Results

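Kcnk1 and 7 other potassium channel genes of the vessel wall were followed in mouse aorta: Kcnk2, Kcnk3, Kcnk6, Kcnma1, Kcnj8, Abcc9 and Kcna5. They are 8 of the 28482 genes on the array and are read by 12 probes, taken by the gene name in the scanner files. The brightest probe of a gene, by its mean over all 16 arrays, stands for it. Kcnk1 was chosen by its measured change with norethisterone acetate (NET-A), for which it ranked 1 of 21183 genes by p-value, so its values in that comparison are a description and carry no test. The other genes were put beside it as channels known from vascular muscle.

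All animals were ovariectomized female ApoE-deficient mice on a C57BL/6 background, a model of atherosclerosis, fed a high-fat Western-type diet. Surgery was done at 4 to 5 weeks of age, and 2 weeks later a subcutaneous pellet was placed that was built to release for 90 days. The pellet held medroxyprogesterone acetate (MPA), a progestin derived from progesterone, or NET-A, a progestin derived from nortestosterone, or no hormone. There were 4 groups of 4 arrays: MPA with the placebo group marked M, and NET-A with the placebo group marked N. Each progestin was set against the placebo group that bears its initial and shares its slides. Aortas were taken after 78 to 90 days and cover the stretch between the arch and the renal arteries. Doses are not given in the sources used here, and the labels do not say that each sample was a separate animal, so the spread behind each p-value is that between samples and may be technical.

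Potassium channels set the resting potential of vascular smooth muscle. When they open, potassium leaves the cell, the membrane hyperpolarizes, voltage-gated calcium channels close and the muscle relaxes. Kcnk1 (TWIK-1), Kcnk2 (TREK-1), Kcnk3 (TASK-1) and Kcnk6 (TWIK-2) are two-pore-domain leak channels. Kcnma1 is the pore of the large-conductance calcium-activated BK channel. Kcnj8 (Kir6.1) and Abcc9 (SUR2) form the pore and the sulphonylurea receptor of the vascular ATP-sensitive channel, and Kcna5 (Kv1.5) is a voltage-gated channel.

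The start-site windows of Kcnk1 and Kcnk2 are shown because progestins act through steroid receptors that bind DNA hexamers of the kind TGTTCT, and Kcnk2 is the one of the 6 genes with an entry in which that hexamer was found. Both strands were searched (TGTTCT and AGAACA), over 250 bases before to 50 after each start site, with RefSeq sequence on GRCm38.p6. Capitals mark the hexamer. The Kcnk1 window lies at chr8:125994852-125995151 on the + strand and the Kcnk2 window, 1 of 4 for this gene, at chr1:189402224-189402523 on the - strand.

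Kcnk1: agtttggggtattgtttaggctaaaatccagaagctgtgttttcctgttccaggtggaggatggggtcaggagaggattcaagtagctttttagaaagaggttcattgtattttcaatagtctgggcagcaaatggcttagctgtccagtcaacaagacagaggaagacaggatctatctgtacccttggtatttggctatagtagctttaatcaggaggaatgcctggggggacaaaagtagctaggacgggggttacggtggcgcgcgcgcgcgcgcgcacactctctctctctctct

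Kcnk2: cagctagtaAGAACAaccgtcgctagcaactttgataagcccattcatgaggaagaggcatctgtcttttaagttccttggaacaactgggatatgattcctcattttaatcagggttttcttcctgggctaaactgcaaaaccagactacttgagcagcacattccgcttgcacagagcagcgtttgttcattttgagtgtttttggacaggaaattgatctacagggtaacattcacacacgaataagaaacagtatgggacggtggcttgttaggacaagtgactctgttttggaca

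The hexamer was absent from the Kcnk1 window and from those of Kcnma1, Kcnj8, Abcc9 and Kcna5. In Kcnk2 it started at position -241 from the start site of the window shown, and each other window of Kcnk2 held 0. For comparison, 19.0% of all 32851 windows of this length hold it. That share is per window, and Kcnk2 had more windows than the other genes matched. A match is a description of letters only. Kcnk3 and Kcnk6 were not matched.

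The share of spots detected well above background ran from 46.3% to 60.6% over the MPA experiment's arrays and from 62.3% to 78.5% over those of the NET-A experiment. MPA replicate 2 was the dimmest array, with a 75th percentile of 7.36 on the log2 scale against 8.28 to 9.84 on the others. Levels below are log2 of the processed signal minus the 75th percentile of the same array, so that 0 is the level of a fairly bright gene, and they are compared only within a probe. Smooth muscle markers (8 of 8 well above background) were high on every array, with mean log2 levels of 4.97 to 5.72, as the labelled tissue has. Brown fat markers were also high, at 3.29 to 5.95. In whole tissue, fewer cells of a type and less RNA per cell cannot be told apart.

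In NET-A aortas Kcnk1 stood above placebo on every array. Its log2 level was -2.74, -2.18, -1.58 and -2.47 in NET-A aortas, against -4.54, -4.54, -4.36 and -4.22 in placebo aortas. The groups did not overlap, and the probe (mm9, chromosome 8, 128554281 to 128554340, + strand) was well above background on all 8 arrays. The means were -2.24 ± 0.50 with NET-A and -4.41 ± 0.16 with placebo (SD, n = 4 each), a difference of 2.17 ± 0.24 (SE; 95% confidence interval 1.62 to 2.73), or 4.51-fold. Because Kcnk1 was picked for this change, the difference may be overstated, and the interval does not have its stated coverage. By size of change Kcnk1 ranked 14.

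**Figure D1:**
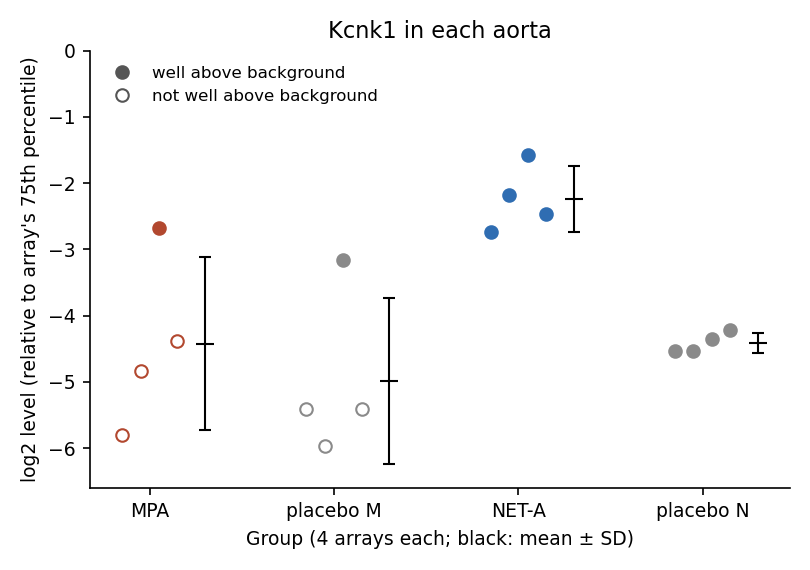
Kcnk1 log2 level on each of the 16 arrays, relative to the array's 75th percentile, by group; filled points were well above background, and black bars give mean ± SD. The 4 NET-A aortas lie between -2.74 and -1.58, above the 4 placebo N aortas at -4.54 to -4.22, while MPA and placebo M overlap.

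No single gene passed the adjusted threshold of 0.05 with NET-A: limma called 0 of 21183 genes (0%), Kcnk1 included, and 1320 had an unadjusted p under 0.05. Groups that do not overlap were found for 831 genes (3.92%), of which Kcnk1 is one by the way it was picked.

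The size of the Kcnk1 difference depended on how background was removed and on the offset then added. The spot itself was dim: its signal before background removal was 251.5, 228 and 152.5 units in NET-A replicates 2, 3 and 4 and lower in replicate 1, against 42, 51, 66 and 70.5 in placebo aortas, over a local background of 25 to 39. With normexp background correction, the alternative listed at the outset, the change was 0.61 ± 0.42. It was run with an offset of 50 units, which narrows log2 differences between dim spots. That correction put the NET-A aortas at -1.81 to -1.11, against -0.81 for placebo replicate 2 and -2.73 to -2.26 for the other placebo aortas, so the groups then overlapped. On placebo replicate 2 it left an interquartile range over all probes of 0.79, against 2.31 to 2.98 on the other arrays of the experiment. Of 3 further normexp versions, all chosen after that result was seen, the one that left out spots far below their local background put placebo replicate 2 at -2.23 and the groups apart, at -1.81 to -1.11 against -2.73 to -2.23, with a change of 0.92 ± 0.20. The version with offset 0 gave 1.11 ± 0.62, with an interquartile range of 0.90 on placebo replicate 2. The version with a capped local background gave 0.55 ± 0.81 and lost its spread on 4 arrays. In both the groups overlapped. The capped version and the one without spots far below background kept the offset of 50 units. No offset was added for the main value. With quantile normalization, and in the authors' deposited series table, the change was 2.26 ± 0.26. All 3 slides held both groups: the difference was 1.80 on slide 3 and 2.96 on slide 4, with 1 array a group, and 1.96 ± 0.22 on slide 5, with 2.

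Marker genes of several other cell types also differed between NET-A and placebo aortas. Markers of red cells were higher in NET-A aortas for 5 of 5 genes, with mean log2 levels over the list of 3.07 to 4.25 against 1.60 to 2.67 in placebo aortas. Platelet markers were higher for 7 of 7 genes, at -0.60 to 0.77 against -2.26 to -0.76, and skeletal muscle markers for 7 of 7, at -1.60 to -0.03 against -1.79 to -1.61. Neutrophil markers were higher for 6 of 6 genes tested, at -2.69 to -0.97 against -3.28 to -2.31. Macrophage markers were lower for 8 of 8, at 0.96 to 1.35 against 1.18 to 2.66. The neutrophil and macrophage levels thus overlapped between the groups, and those of skeletal muscle barely cleared each other. Endothelial markers were higher for 7 of 8 genes, smooth muscle markers for 4 of 8 and adipocyte markers for 3 of 5. For Schwann and neuron markers it was 2 of 6, for brown fat markers 1 of 5 and for epithelial markers 1 of 3. With MPA, 5 of 5 red cell, 7 of 7 platelet and 5 of 5 neutrophil markers were also higher, but the levels of each list overlapped between the groups. There 0 of 8 macrophage and 0 of 5 skeletal muscle markers were higher. None of these genes passed the threshold singly, and their part in the Kcnk1 difference was not tested.

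In the MPA experiment Kcnk1 was at the edge of detection. Its log2 level was -5.80, -4.83, -2.68 and -4.39 in MPA aortas, against -5.41, -5.97, -3.16 and -5.41 in placebo aortas. Only replicate 3 of each group was well above background, and these were also the highest values. The mark did not follow this level across the experiments, which were read with different software versions. Placebo N replicates 1 and 2 bore it at -4.54, while MPA replicate 4 did not at -4.39. The groups overlapped, the plain difference of means was 0.56, and the gene was too dim to enter the test. The difference between the MPA and the NET-A response could therefore not be tested for Kcnk1, and the data do not show that the progestins differ in it.

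The genes whose levels ran most like Kcnk1 over the 8 arrays of the NET-A experiment were Dhrs11 (r = 0.976), Sord (0.972), Npy1r (0.97), Kcns3 (0.968) and Adipor1 (0.966), of 21116 compared. Sord encodes sorbitol dehydrogenase, Npy1r a receptor of neuropeptide Y, and Adipor1 an adiponectin receptor. These correlations largely restate the group difference that all 5 share with Kcnk1. Dhrs11 had log2 levels of -0.95 to 0.17 in NET-A aortas against -1.56 to -1.44 in placebo aortas, and Npy1r -1.13 to -0.06 against -1.91 to -1.83.

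Of the other leak channels, Kcnk3, a pH-sensitive background channel also found in brown fat, had overlapping groups in both experiments. With MPA its log2 level was 1.91, 1.66, 2.44 and 2.73, against 2.02, 2.01, 2.19 and 1.56 with placebo. The groups overlapped, and the change was 0.24 ± 0.26 (limma, adjusted p = 0.902). With NET-A it was 0.23, 2.55, 0.88 and 0.91, against 1.21, 0.92, 0.29 and 1.36 with placebo. Replicate 2 alone stood above the placebo range. The change was 0.20 ± 0.48 (limma, adjusted p = 0.997), and -0.27 ± 0.30 without that replicate. The second probe of Kcnk3 was highest in the same aorta, at 0.91 against -2.02 to -0.71 in the other 7.

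Kcna5, which carries delayed rectifier current, was highest in the same NET-A aorta. Its log2 level was -3.47, -0.96, -2.64 and -2.72 with NET-A, against -2.82, -2.14, -3.21 and -1.81 with placebo. The groups overlapped, with a change of 0.05 ± 0.54 (limma, adjusted p = 0.997), and -0.45 ± 0.38 without replicate 2. That aorta also had the highest brown fat marker level of its experiment, 5.79 against 3.29 to 4.87, and the highest adipocyte marker level, 4.18 against 2.56 to 3.53. Its endothelial marker level was the highest too, 2.38 against 1.42 to 1.94. The part of fat or endothelium in these values was not tested. In the MPA experiment Kcna5 was -3.01, -3.23, -2.26 and -2.14 with MPA, against -1.99, -2.02, -1.93 and -2.85 with placebo. Again the groups overlapped, at placebo replicate 4 alone, and the change was -0.46 ± 0.31 (limma, adjusted p = 0.855). It was -0.68 ± 0.29 without that replicate and -0.27 ± 0.30 without MPA replicate 2.

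**Figure D2:**
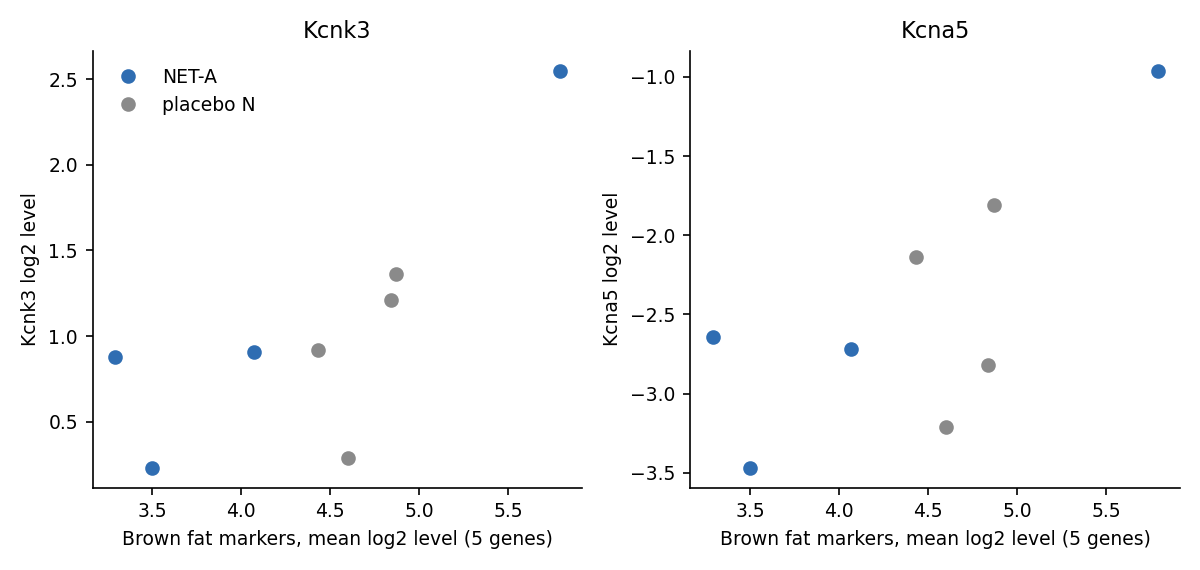
Log2 levels of Kcnk3 (left) and Kcna5 (right) against the mean log2 level of 5 brown fat markers on the 8 arrays of the NET-A experiment. The NET-A aorta at 5.79 on the horizontal axis has the highest level of both genes, 2.55 and -0.96.

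Kcnk6, a leak channel of vascular muscle in mice, had overlapping groups as well. Its log2 level ranged from 0.32 to 0.77 with MPA, against 0.22 to 1.20 with placebo, and from 0.22 to 0.61 with NET-A, against 0.15 to 0.83 with placebo. Its change was -0.12 ± 0.22 for MPA and -0.08 ± 0.17 for NET-A (limma, adjusted p = 0.941 and 0.997). Kcnk2, a mechanosensitive leak channel, was well above background on 1 MPA and 1 NET-A array and on 0 placebo arrays. Its measured log2 level was -5.85, -3.37, -4.64 and -3.72 with MPA, against -5.75, -3.89, -5.32 and -4.24 with placebo. With NET-A it was -6.01, -5.85, -7.41 and -7.47, against -5.46, -6.55, -6.06 and -7.06 with placebo. It was too dim to test.

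Kcnma1, the BK pore, was detected well above background on each of the 16 arrays. Its log2 level was -1.19, -1.62, -1.39 and -1.44 with MPA, against -1.18, -1.87, -1.75 and -2.38 with placebo. The groups overlapped at replicate 1 of placebo, and the change was 0.39 ± 0.24 (limma, adjusted p = 0.855), with 0.59 without that replicate and 0.19 without placebo replicate 4. With NET-A it was -2.21, -2.61, -2.08 and -2.32, against -1.97, -2.11, -1.84 and -2.68 with placebo. These values also overlapped, with a change of -0.15 ± 0.21 (limma, adjusted p = 0.987) that ran from -0.33 without placebo replicate 4 to -0.05 without placebo replicate 3 or NET-A replicate 2. The MPA response less the NET-A response was 0.54 ± 0.33 (limma over 16 arrays, adjusted p = 0.817; 95% confidence interval -0.15 to 1.23).

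With each experiment's mean removed, the genes that ran most like Kcnma1 over the 16 arrays were Ntrk3 (r = 0.892), the transcripts ENSMUST00000102660 (0.858) and AK082074 (0.857), Rora (0.851) and Crebl2 (0.849), of 14522 compared. Ntrk3 encodes a neurotrophin receptor and Rora a nuclear receptor. With MPA their changes were 0.35 ± 0.17 for Ntrk3 and 0.22 ± 0.18 for Rora, and with NET-A 0.06 ± 0.17 and -0.10 ± 0.14; none was called.

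The main probes of the ATP-sensitive channel genes lie 23673 bases apart on chromosome 6 (mm9), Kcnj8 at 142514004 to 142514063 and Abcc9 at 142537737 to 142537796, both on the - strand. Kcnj8 had log2 levels of 3.53, 3.41, 3.72 and 3.74 with MPA, against 3.43, 3.32, 3.19 and 3.66 with placebo. With NET-A it had 3.61, 3.25, 3.32 and 3.26, against 3.14, 3.26, 3.32 and 3.38 with placebo. Both pairs of groups overlapped, and the change was 0.20 ± 0.16 for MPA and 0.09 ± 0.13 for NET-A (limma, adjusted p = 0.871 and 0.99). The second probe of Kcnj8, also well above background on all 16 arrays, gave 0.23 ± 0.16 with MPA and -0.07 ± 0.15 with NET-A, so the probes differ in sign there.

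Abcc9 had log2 levels of 2.62, 2.63, 2.35 and 2.13 with MPA, against 2.88, 0.40, 2.24 and 2.27 with placebo. The value of 0.40, in placebo replicate 2, was far below the rest on this probe alone. On the other probes of Abcc9 the same aorta read 1.49, among 1.37 to 2.03 in its group, and -0.69, among -0.69 to 0.31. The change with MPA was 0.48 ± 0.46 (limma, adjusted p = 0.892), and -0.03 ± 0.23 without that replicate. On both other probes it was -0.04. With NET-A, Abcc9 ranged from 1.65 to 2.11, against 1.68 to 2.12 with placebo, a change of 0.04 ± 0.15 (limma, adjusted p = 0.997).

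**Figure D3:**
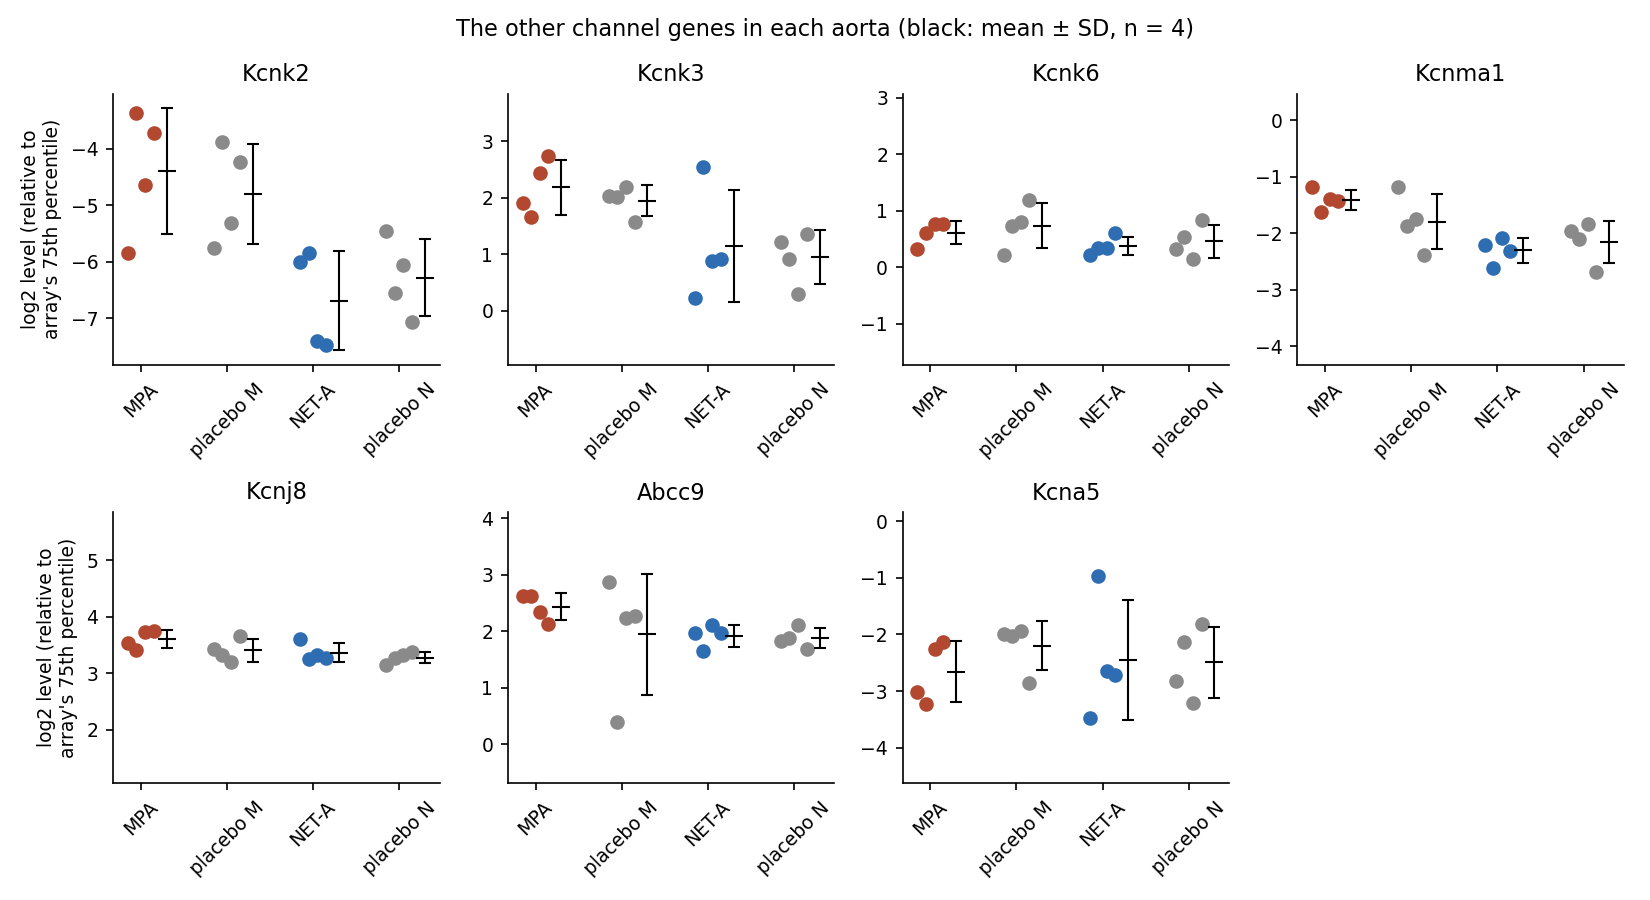
Log2 level of the main probe of Kcnk2, Kcnk3, Kcnk6, Kcnma1, Kcnj8, Abcc9 and Kcna5 on each array by group, with mean ± SD in black (n = 4). Each panel spans the same number of log2 units; the groups overlap in every panel, and single aortas stand apart for Kcnk3 and Kcna5 (NET-A) and Abcc9 (placebo M).

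Apart from Kcnk1, 6 of the genes were tested in each experiment. With MPA 4 were higher and 2 lower, with a median change of 0.22, and 0 of 6 were called, where 0 of all 15293 genes tested (0%) were called and 954 had an unadjusted p under 0.05. With NET-A 4 were higher and 2 lower, with a median of 0.04, and 0 of 6 were called. The medians over all genes were -0.001 and -0.027. None of the 6 had an unadjusted p under 0.05 in either comparison, and none had groups that did not overlap; with MPA that was so for 533 of all genes (3.49%). For the difference between the responses 0 of 6 were called, as were 0 of 15179 genes (0%), where 1038 had an unadjusted p under 0.05. These p-values do not show that the levels were equal: the confidence intervals reach -1.18 to 1.28 for Kcna5 and -0.90 to 1.30 for Kcnk3 with NET-A, and are narrowest for Kcnj8, at -0.21 to 0.38.

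**Figure D4:**
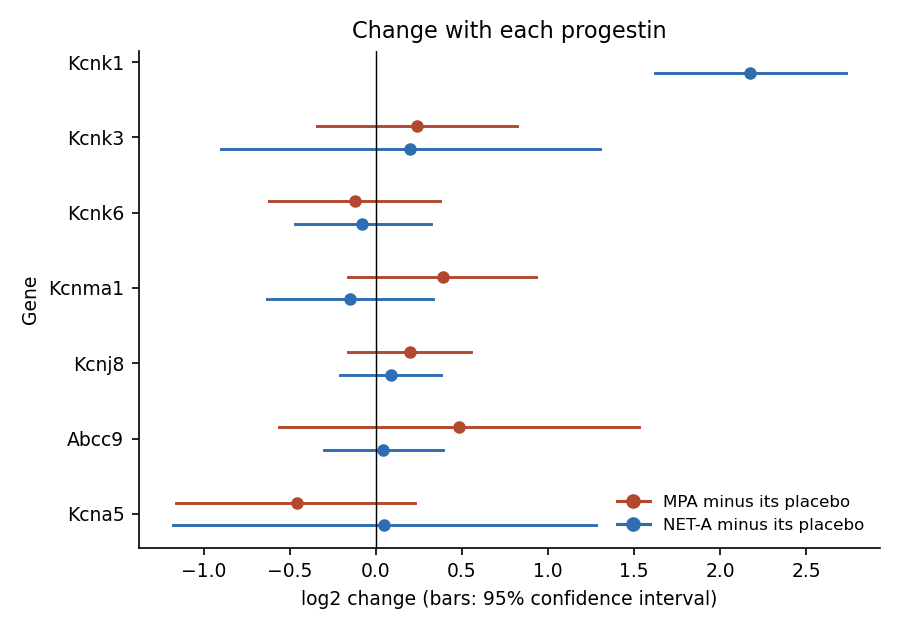
Log2 change of each tested gene with MPA (red) and NET-A (blue) against its own placebo, with the 95% confidence interval. The Kcnk1 interval with NET-A runs from 1.62 to 2.73. It describes the gene chosen for that change and is not to be read as a test beside the others. Every other interval includes 0.

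Of 89 further potassium channel genes listed, 82 were on the array. With MPA 23 were bright enough to test, 14 higher and 9 lower, with a median change of 0.11, and 0 were called. With NET-A 56 were tested, 31 higher and 24 lower, with a median of 0.04, and 0 were called. Over all genes tested, 0% were called in either comparison. Groups that did not overlap were found for 1 of the 23 with MPA and 4 of the 56 with NET-A, beside 3.49% and 3.92% of all genes tested, so nothing is read from these counts about potassium channels. The genes are described for their values only.

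The 4 were Kcns3, Kcnc1, Kcnh6 and Kcnip3. Kcns3, a silent subunit that modifies other voltage-gated channels, had log2 levels of 0.64, 0.92, 1.21 and 0.75 with NET-A, against -0.18, 0.15, 0.25 and 0.11 with placebo. All 4 NET-A aortas were above all placebo aortas, with a change of 0.80 ± 0.16 (limma, adjusted p = 0.594). Kcnc1, a fast Kv3 channel, had -3.67, -5.00, -3.05 and -4.44 with NET-A, against -6.65, -6.51, -5.34 and -5.52 with placebo. It was well above background on 4 NET-A arrays but on 1 placebo array, so it entered the test through the group where it is high, and the size of its difference is not well measured. Kcnh6, of the ether-a-go-go family, had a change of 0.81 ± 0.24 (limma, adjusted p = 0.621), with groups that just cleared each other, at -1.74 to -0.74 against -2.28 to -1.75. Kcnip3, a calcium-binding partner of Kv4 channels, had a change of 0.58 ± 0.19 (limma, adjusted p = 0.67). Its groups also just cleared each other, at -4.60 to -3.71 against -4.84 to -4.67, and it was well above background on 3 NET-A and 2 placebo arrays.

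With MPA the one gene without overlap was Kcna1, a Kv1 channel. Its log2 level was -0.48, -0.72, 0.28 and -0.03 with MPA, against 0.55, 0.86, 1.59 and 0.29 with placebo, a change of -1.06 ± 0.31 (limma, adjusted p = 0.749). With NET-A its change was -0.10 ± 0.16. Next by p-value came Kcne3, an accessory subunit, with 0.39 ± 0.20, and Kcnj10, an inward rectifier, with -0.80 ± 0.43. Kcnj10 was well above background on only 2 MPA and 2 placebo arrays, so the size of its difference is not well measured.

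Among partners and further vascular channels, Kcnmb1, the smooth muscle beta subunit of BK, had changes of 0.11 ± 0.21 with MPA and 0.11 ± 0.17 with NET-A. Kcnq5, a voltage-gated channel, and Kcnj11 (Kir6.2) were tested with NET-A alone, with changes of 0.32 ± 0.27 and -0.13 ± 0.19. Kcnj2 (Kir2.1) was well above background on 0 of 16 arrays. No gene of this group that was tested passed the threshold.

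**Figure D5:**
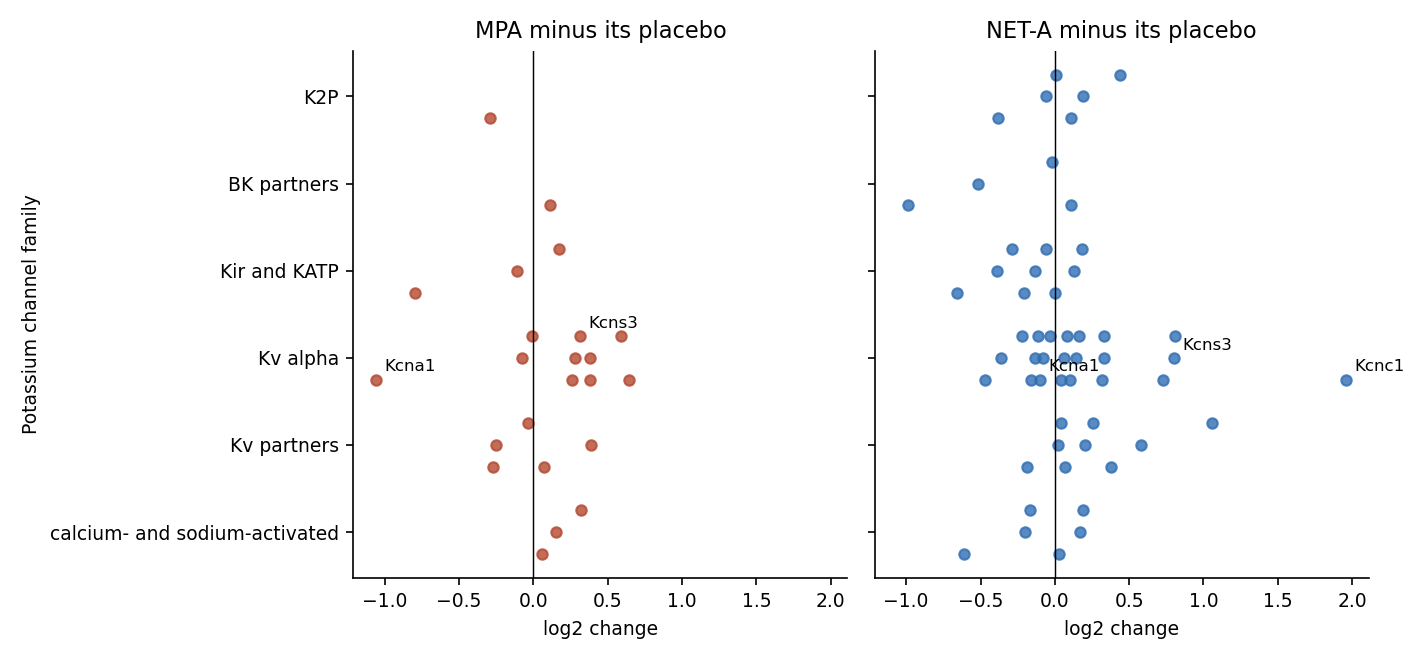
Log2 change of the further potassium channel genes bright enough to test, by family, with MPA (left, 23 genes) and NET-A (right, 56 genes); vertical offsets within a family only separate points. Kcna1 lies at -1.06 in the MPA panel and Kcns3 at 0.80 in the NET-A panel; the point of Kcnc1 rests on a placebo group with 1 of 4 arrays well above background.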

How the data were processed

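Total RNA (100 ng per sample) was labelled with Cy3 and read on 16 one-colour arrays. Per the file headers, the deposited spot intensity came from Agilent Feature Extraction 10.7.1.1 (MPA experiment) and 11.0.1.1 (NET-A experiment), with background removed and no scaling between arrays. No source used here says how the deposited log2 series table was made; its scale and centring are inferred. Outlier spots were left out (1802 probe values, 0.274%), log2 of the processed signal was taken, and each array's 75th percentile subtracted. The NET-A files hold no gene names and no mean signal, so names came through probe identifiers from the MPA files, and the median signal served for normexp. Genes well above background on at least 4 of 8 arrays were tested with limma 3.58.1 in R 4.3.3 (lmFit and eBayes, two-sided, Benjamini-Hochberg over all genes, threshold 0.05). The fit was run on simulated data with known changes added, and the pass mark was only that their mean size was returned. No detection rate is given from it. Genes named were the members, 3 list genes per comparison with the smallest p, fixed vascular genes (some are not reported here), and 5 most like Kcnk1 and Kcnma1; Kcnip3 was added after its values were seen. Members and lists were chosen with earlier results of these data known. The number of arrays limits the precision.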

Additional observations from a re-analysis of the deposited data

Results flagged for a closer look

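In 5 of 100 groups of 4 arrays a single value stood far from the other 3, and chance flags about 5% of groups at the 95% critical value used. Abcc9 read 0.45 on one of its probes in replicate 4 of the NET-A placebo group, against 0.81 to 0.87 in the others. On another probe Abcc9 read 0.31 in replicate 1 of the MPA placebo group, against -0.69 to -0.60. Kcna5 read -2.85 in replicate 4 of the MPA placebo group, against -2.02 to -1.93. Kcnc1 read -4.59 in MPA replicate 2, the dimmest array, against -6.28 to -6.24, and was not well above background there. Kcnj11 read -4.22 in replicate 1 of the MPA placebo group, against -5.68 to -5.44, and was likewise not well above background.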

How the results depend on the processing

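Of 70 counts of called genes under alternatives, 3 were above 0: 1 gene for MPA with slide as a block, and 1 for the difference between the responses both with the replicate block and without NET-A replicate 1 (leaving out each replicate gave 0 to 1). With NET-A 0 genes were called under every alternative run, Kcnk1 included. The other members were not called under any alternative in either experiment. Of their 257 changes 26 turned sign, and none of the 257 had an adjusted p under 0.05. Normexp was run in 4 versions, of which 3 were chosen after seeing the data and the first version's result. The planned version gave Kcnk1 0.61 ± 0.42 with NET-A, offset 0 gave 1.11 ± 0.62, a capped local background gave 0.55 ± 0.81, and leaving out spots far below their local background gave 0.92 ± 0.20. The capped version lost its spread on 4 arrays (interquartile range 0), so its values say little. All versions but offset 0 added an offset of 50 units, which narrows log2 differences between dim spots, and the main value had none added. All 4 were below 2.17, the main value, and no version is taken as settling it. The planned version also turned Kcnk3 to -0.09, Kcnj8 to -0.20 and Kcna5 to 0.38 with MPA, and Kcna5 to -0.16 with NET-A. Offset 0 turned the same values to -0.07, -0.17, 0.32 and -0.17. Both versions had little spread on MPA replicates 1 and 4 and placebo N replicate 2. The interquartile ranges there were 1.25, 0.80 and 0.79 in the planned version and 1.32, 0.85 and 0.90 with offset 0. With spots far below their local background left out, they were 3.18, 2.83 and 2.28. The changes were then 0.14, 0.07 and -0.13 with MPA and 0.02 with NET-A, with the signs of the main setting. The capped version turned Kcnma1 to 0.12, Abcc9 to -0.16 and Kcna5 to -0.32 with NET-A. Within slide 1, Kcnk3 was -0.23, Abcc9 0.99 ± 0.85 and Kcna5 -1.12 ± 0.23 with MPA. Within slide 2, these genes were at 0.71, -0.02 and 0.19 ± 0.33. Within slide 5, Kcnj8 and Abcc9 were both -0.09 with NET-A. Leaving out 1 replicate kept Kcnk1 between 1.95 and 2.34 with NET-A. It gave, with MPA, 0.06 to 0.41 for Kcnk3, -0.30 to 0.03 for Kcnk6, 0.19 to 0.59 for Kcnma1, 0.13 to 0.28 for Kcnj8, -0.03 to 0.79 for Abcc9 and -0.68 to -0.27 for Kcna5. With NET-A it gave -0.27 to 0.50 for Kcnk3, -0.18 to 0.04 for Kcnk6, -0.33 to -0.05 for Kcnma1, 0 to 0.12 for Kcnj8, -0.02 to 0.13 for Abcc9 and -0.45 to 0.39 for Kcna5. The cause was not tested. Same-numbered replicates had r = -0.23 to 0.23 with MPA, where each ran more like another number. With NET-A, replicates 1 and 4, which share a slide with the placebo of their number, had r = 0.18 and 0.33. Their best values with another number were 0.13 and 0.15. Replicates 2 and 3, on other slides than the placebo of their number, had -0.33 and -0.27, against 0.38 and 0.46. Whether samples are paired was not settled. Kcnk1 was 2.17 ± 0.22 with the replicate block and with slide as a block, and no member was called in either. Signal over background limits Kcnk1, Kcnk2 and Kcna5 most.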
